A study of Mus musculus and Homo sapiens with 30 samples.

Results

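The genes described here are 10 mouse genes whose RNA levels are used to place a cell between an epithelial and a mesenchymal state. They were chosen by name, as well-known genes of this transition, with earlier results of these data known. The genes are Cdh1, Epcam, Cdh2, Vim, Fn1, Snai1, Snai2, Zeb1, Zeb2 and Twist1, which are 10 of the 56980 gene IDs in the mouse table. Their human counterparts CDH1, VIM and EPCAM were followed by ID, as 3 of the 61552 IDs in the human table. All 10 mouse genes were found in the table. In the line E0771, 5 of the 10 passed the filter on low counts (Vim, Snai1, Zeb1, Zeb2 and Twist1), in NMuMG all 10 did, and in SkBr3 1 of the 3 human genes did (EPCAM).

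The study measured poly(A) RNA in 30 libraries from E0771 (a mouse mammary cancer line), NMuMG (a mouse mammary gland epithelial line) and SkBr3 (a human breast cancer line). The labels give all 3 the cell type breast cancer. After 36 h of growth, cells spent 16 h in standard growth medium, called control here, or in a mixture of 50% growth medium and 50% secretome, the medium conditioned by inguinal fat cells of a lean or an obese source. There were 3 libraries per medium in E0771 and in NMuMG and 4 in SkBr3. E0771 and SkBr3 shared 1 base medium, DMEM with serum, while that of NMuMG also contained insulin and a stated amount of glucose, so the line and its medium cannot be told apart. The labels do not give the species of the fat cells, and no genotype or added drug. Control medium held no secretome, so lean against obese is the comparison matched for the share of secretome, and both secretomes were compared with the same control libraries. The labels do not say that replicates came from separate cultures, so the p-values measure the spread between these libraries, which may be technical.

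Epithelial cells are held together by junctions built on E-cadherin, the product of Cdh1, and mammary epithelium also carries the adhesion protein Epcam. In an epithelial-mesenchymal transition, cells lose these junctions and gain N-cadherin (Cdh2), the intermediate filament vimentin (Vim) and the matrix protein fibronectin (Fn1). The transcription factors Snai1, Snai2, Zeb1, Zeb2 and Twist1 drive this programme. The Snail and Zeb factors bind the E-box letters CACCTG and repress Cdh1. NMuMG is a common model of this transition because its cells undergo it when given TGF-beta, and many lines rest at stages between the extremes.

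Library totals ranged from 18479433 to 31094119 counts. In E0771 the lean libraries had 27570157 to 31094119 counts against 22929035 to 28210331 in the other media. Levels are given as CPM, the counts per 1000000 counts of the library, and calls were made where the adjusted p was under 0.05 in edgeR's quasi-likelihood test with Benjamini-Hochberg adjustment over all genes tested. The labelled cell type was checked against 7 mammary keratins. In NMuMG the luminal keratins Krt8, Krt18 and Krt19 were abundant, and the 7 summed to 6338 to 7657 CPM in a library. In E0771 Krt8 was at 229 to 258 CPM, but its partner Krt18 was at no more than 1 count in any library and Krt19 was at 0 in all 9. Markers of other cells were summed in the same way. The 7 fibroblast markers reached 342 to 994 CPM in E0771, mostly from Col1a1, Col3a1 and Pdgfra, against 3.23 to 6.18 CPM in NMuMG. The 7 immune markers stayed at or under 6.01 CPM and the 5 endothelial markers at or under 5.62 CPM in both lines. Of the 8 adipocyte markers, Lep was at 0 in all 18 mouse libraries. Without Adipor2, which was at 149.5 CPM or more throughout, the other 7 summed to at most 0.261 CPM in E0771 and to 0.322 to 2.30 CPM in NMuMG.

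Before treatment, the lines stood at different places on this axis. E0771 had almost no RNA of the epithelial members and high levels of vimentin and of 4 of the 5 transcription factors, while NMuMG expressed Cdh1, Cdh2, Fn1 and Vim together. In E0771 control medium, Cdh1 gave 11 reads over the 3 libraries, against 45410 in NMuMG, which is a ratio of NMuMG to E0771 in CPM of 3802 (95% exact interval 2125 to 7617). That interval and those that follow cover counting error only. Epcam gave 6 reads in E0771 and 184 in NMuMG, a ratio of 28.2 (12.7 to 78.0). Its level in NMuMG was itself low, at 2.19 ± 0.249 CPM (SD, n = 3). NMuMG cells therefore carried abundant Cdh1 with little Epcam RNA.

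The mesenchymal structural members did not divide the lines in 1 direction. Cdh2 gave 3 reads in the E0771 controls and 21531 in NMuMG, a ratio of 6610 (2261 to 32055). Fn1 gave 0 reads in all 9 E0771 libraries, out of 242890182 counts, which allows a pooled level of up to 0.0124 CPM by a floor of 3 counts. In NMuMG control medium it gave 129282 reads, at least 39689-fold higher than E0771 by the same floor over the group. Vim went the other way, with 3026 ± 65.3 CPM (SD, n = 3) in E0771 and 1782 ± 50.3 in NMuMG, a log2 difference of NMuMG minus E0771 of -0.65 (SE 0.0337, edgeR adjusted p = 5.40e-21). So the line without detectable Fn1 and with almost no Cdh2 had the higher vimentin RNA.

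Among the transcription factors, E0771 held more Twist1, Snai1, Zeb2 and Zeb1, and NMuMG held more Snai2. Twist1 was at 41.3 ± 2.40 CPM in E0771 and 1.15 ± 0.0687 in NMuMG (SD, n = 3 each), a log2 difference of -5.05 (SE 0.116, edgeR adjusted p = 1.70e-33). Snai1 was at 37.8 ± 1.97 against 2.24 ± 0.158 CPM, a log2 difference of -3.97. Zeb2 was at 76.5 ± 1.38 against 16.8 ± 0.249 CPM (-2.08), and Zeb1 at 81.9 ± 2.12 against 53.4 ± 2.02 CPM (-0.50). All 5 members that passed the filter in both lines were called between the lines in control medium, where 80.5% of 16529 genes were called, so this count is read against a very high background. Snai2 was the exception in direction, with 7 reads in the E0771 controls and 537 in NMuMG, a ratio of 70.7 (34.1 to 177). Of Snai1 and Snai2, Snai1 thus had the higher RNA level in E0771 and Snai2 in NMuMG, also after division by exon length (below). Snai3, which is not a member, was not compared with them.

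**Figure D1:**
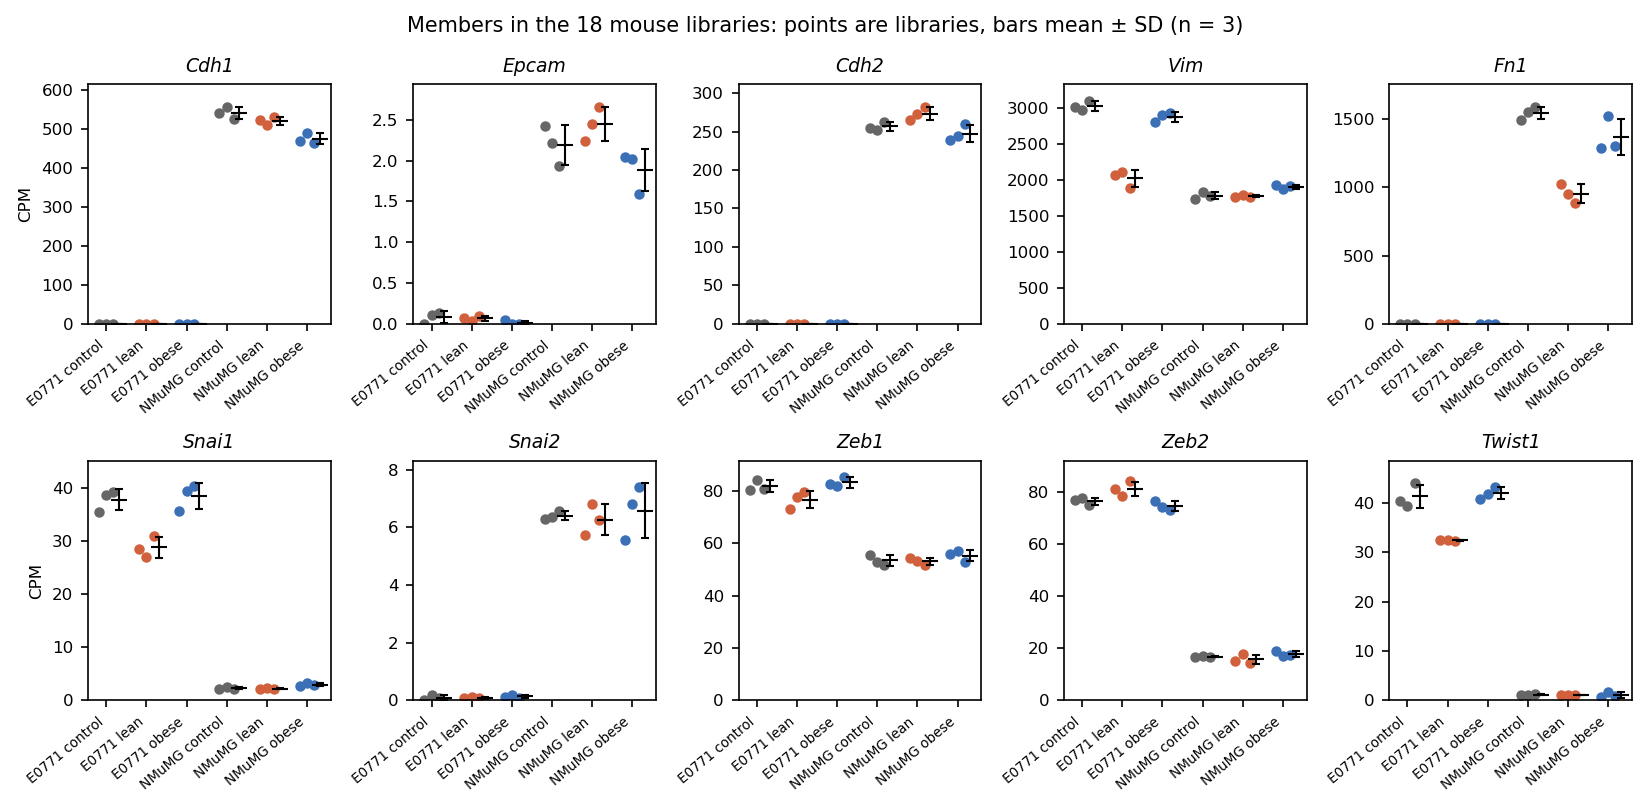
CPM (linear axes from 0) of the 10 mouse genes in 9 E0771 and 9 NMuMG libraries; points are libraries, bars are means ± SD (n = 3). Cdh1, Epcam, Cdh2, Fn1 and Snai2 lie near 0 in E0771, and Vim, Snai1 and Twist1 dip in the E0771 lean libraries.

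Levels of different genes were compared only after division by exon length (CPM per kb). In E0771 control medium Vim led at 638 ± 13.8 CPM per kb (SD, n = 3), followed by Twist1 at 25.4 ± 1.47, Snai1 at 23.3 ± 1.21, Zeb1 at 7.98 ± 0.206 and Zeb2 at 3.84 ± 0.0693. Twist1 and Snai1 were neighbours whose means lay within their summed SDs. Snai2 (0.0451), Epcam (0.0369) and Cdh1 (0.0312) could not be ordered, since their SDs of 0.0166 to 0.0461 span the gaps. Cdh2 (0.00452) rested on 3 reads in 1 library and could not be set below Snai2 or Epcam by its SD, and Fn1 was at 0. In NMuMG control medium the order per kb was Vim (376 ± 10.6), Fn1 (132 ± 3.97), Cdh1 (119 ± 3.32), Cdh2 (31.9 ± 0.699), Zeb1 (5.21 ± 0.197), Snai2 (3.17 ± 0.0723) and Snai1 (1.38 ± 0.0972). Epcam (0.999 ± 0.113), Zeb2 (0.840 ± 0.0125) and Twist1 (0.705 ± 0.0422) came last. Each gap between neighbours in that order was larger than their summed SDs.

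The first treatment question was how the members responded to lean against obese secretome in E0771. Vim, Snai1 and Twist1 were lower with the lean secretome, with fitted differences of -29.9%, -25.5% and -22.9%. Zeb1 differed by -8.21% and Zeb2 by 8.32%. All 5 tested members were called, 4 lower and 1 higher, where 52.7% of 13813 genes were called, 26.9% lower and 25.8% higher. In bulk RNA, fewer cells of a type and less RNA per cell cannot be told apart.

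Vim stood at 3007, 2973 and 3099 CPM in the 3 control libraries of E0771, at 2065, 2115 and 1891 CPM with lean secretome and at 2799, 2902 and 2924 CPM with obese secretome. All 3 lean libraries lay below all 6 others. Such separation was common: over all genes tested in E0771, lean and obese libraries did not overlap for 60.3%, and lean and control libraries for 61.4%. The Vim lean over obese log2 fold change was -0.51 (SE 0.0378, edgeR adjusted p = 8.43e-11). Vimentin is the main intermediate filament of mesenchymal cells, and its RNA was also the highest of the members per kb in this line.

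Snai1, which encodes the Snail repressor of E-cadherin, was at 35.5, 38.7 and 39.2 CPM in control medium, at 28.5, 27.0 and 30.9 CPM with lean secretome and at 35.7, 39.4 and 40.4 CPM with obese secretome. The lean libraries again lay below the rest, while the control and obese libraries overlapped. The lean over obese log2 fold change was -0.42 (SE 0.0655, edgeR adjusted p = 6.64e-06). Twist1 encodes a basic helix-loop-helix factor of mesoderm and neural crest. It was at 40.4, 39.4 and 44.0 CPM in control medium, at 32.6, 32.5 and 32.4 CPM with lean secretome and at 40.8, 41.8 and 43.2 CPM with obese secretome. The 3 lean values were nearly equal and below the other 6, with a lean over obese log2 fold change of -0.38 (SE 0.0574, edgeR adjusted p = 5.78e-06).

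The 2 Zeb factors, large zinc finger repressors that act on the same E-boxes, showed small differences of opposite sign. Zeb1 was at 80.5, 84.3 and 80.9 CPM (control), 73.1, 77.5 and 79.6 CPM (lean) and 82.5, 81.8 and 85.4 CPM (obese). Its lean over obese log2 fold change was -0.12 (SE 0.0466, edgeR adjusted p = 0.0287). Without lean replicate 1 the value was -0.09 with an edgeR adjusted p of 0.148, and without obese replicate 3 it was -0.11 with 0.112. Zeb2 was at 76.8, 77.7 and 75.0 CPM (control), 81.0, 78.5 and 84.1 CPM (lean) and 76.7, 74.2 and 73.1 CPM (obese), with a log2 fold change of 0.12 (SE 0.0458, edgeR adjusted p = 0.0376). Its lean libraries were all above the other 6, yet the call was lost in 7 of 11 alternative settings, among them the omission of lean replicate 1 or 3 or obese replicate 2 or 3. Zeb2 shares 3.27% of its exon bases with the antisense gene Zeb2os and Zeb1 shares 1.93% with Gm10125. The strand setting of the counting is not given in the sources used here, so reads in those stretches cannot be assigned.

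Against control medium, the lean secretome gave 3 of 5 members called in E0771, all lower, where 56.3% of 13813 genes were called, 29.0% lower and 27.3% higher. Vim fell by 0.59 on the log2 scale (SE 0.0378, edgeR adjusted p = 5.59e-12), Snai1 fell by 0.40 and Twist1 fell by 0.36. Zeb1 had a log2 value of -0.11 (edgeR adjusted p = 0.0586) and Zeb2 of 0.07 (edgeR adjusted p = 0.171). Zeb1 passed the threshold (edgeR adjusted p = 0.0230) without lean replicate 3. The obese secretome gave 0 of 5 members called against control by edgeR and 0 by DESeq2, where edgeR called 2.61% of genes. In edgeR 1 member (Vim) had an unadjusted p under 0.05, as had 2130 of 13813 genes. The Vim log2 value was -0.08 (SE 0.0377, edgeR adjusted p = 0.315), with the 3 obese libraries below the 3 controls. Obese and control libraries did not overlap for 21.5% of genes. The other 4 lay between -0.04 and 0.02. The 5 members that failed the filter stayed near 0 in every medium. Cdh1 gave 20 reads in the lean libraries together and 10 in the obese, and Epcam 6 and 1. A change in these genes was not detectable at this depth.

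**Figure D2:**
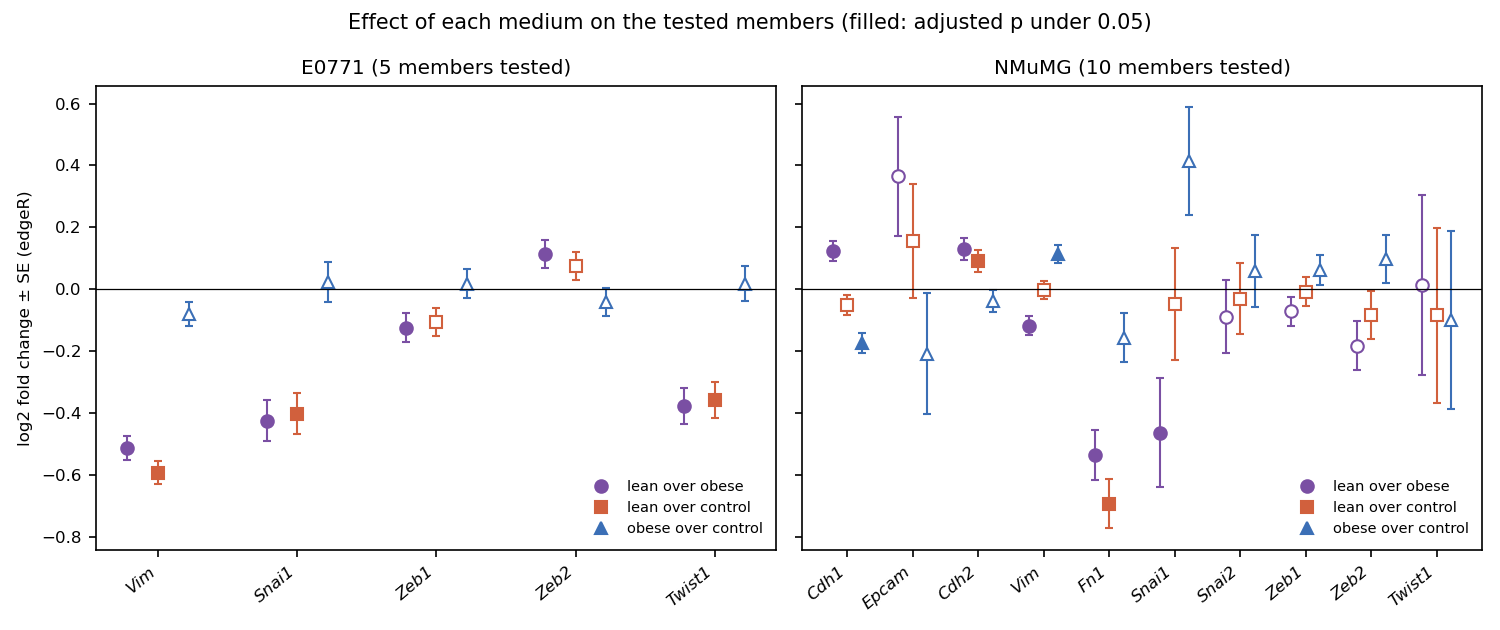
Log2 fold changes (edgeR, vertical axis) with their SEs as bars for the tested members in E0771 (left) and NMuMG (right), filled where the adjusted p was under 0.05. In E0771 the lean effects on Vim, Snai1 and Twist1 lie between -0.59 and -0.36 in both lean comparisons, and in NMuMG Fn1 has the lowest value in each of the 2 lean comparisons.

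The 250 bases before the start sites show how these promoters differ in the E-box that Snail and Zeb factors read. Epcam is shown as the epithelial member, Snai1 as the factor, and Vim and Twist1 as other members that fell with lean secretome in E0771. Zeb1, also called lower there with lean than with obese secretome, is not shown. The sequences are from RefSeq on GRCm38.p6, all on the plus strand, 5′ to 3′, and capitals mark CACCTG or, where it lies on the other strand, its reverse complement.
Epcam (chr17:87635729-87635978): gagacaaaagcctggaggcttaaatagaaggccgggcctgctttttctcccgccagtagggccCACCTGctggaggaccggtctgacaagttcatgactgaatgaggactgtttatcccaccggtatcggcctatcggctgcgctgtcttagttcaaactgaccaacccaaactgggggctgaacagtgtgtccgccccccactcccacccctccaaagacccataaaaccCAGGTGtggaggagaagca
Snai1 (chr2:167537945-167538194): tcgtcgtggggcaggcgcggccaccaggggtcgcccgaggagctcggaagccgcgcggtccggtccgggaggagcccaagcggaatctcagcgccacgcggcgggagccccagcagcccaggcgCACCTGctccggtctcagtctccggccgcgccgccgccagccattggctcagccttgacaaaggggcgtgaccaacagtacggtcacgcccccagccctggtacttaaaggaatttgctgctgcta
Vim (chr2:13574061-13574310): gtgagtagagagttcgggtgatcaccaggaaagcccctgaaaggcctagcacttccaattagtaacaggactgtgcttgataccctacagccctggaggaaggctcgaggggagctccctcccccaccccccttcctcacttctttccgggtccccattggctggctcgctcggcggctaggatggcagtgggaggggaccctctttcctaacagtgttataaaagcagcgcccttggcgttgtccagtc
Twist1 (chr12:33957421-33957670): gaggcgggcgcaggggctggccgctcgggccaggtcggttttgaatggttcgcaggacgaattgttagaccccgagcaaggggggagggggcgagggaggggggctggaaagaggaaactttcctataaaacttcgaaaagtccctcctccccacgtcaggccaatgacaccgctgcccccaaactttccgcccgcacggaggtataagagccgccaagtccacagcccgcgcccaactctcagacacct
Epcam held 2 matches, which began 187 and 19 bases before the start, and Snai1 held 1, which began 126 bases before it. Vim and Twist1 held none, nor any copy of the general E-box CANNTG. The letters CACCTG occurred in 17.2% of 32851 mouse windows of the same length, and CANNTG, which includes it, in 66.2%. A match describes these letters only, and its absence says nothing about the factors. The 4 windows of Zeb2, some of which overlap, are not printed and held no copy of either motif. No promoter is shown for Cdh1, Cdh2, Fn1, Snai2 and Zeb1.

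In NMuMG both cadherin genes, Cdh1 and Cdh2, rose with lean relative to obese secretome, and Fn1, Vim and Snai1 fell. Thus 5 of 10 members were called, 2 higher and 3 lower, where 35.0% of 15014 genes were called, 17.6% higher and 17.4% lower. Fn1 showed the largest difference of the 5, and the differences of Cdh1, Cdh2 and Vim were under 10% in size.

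Fn1 encodes fibronectin, a matrix glycoprotein that integrins bind. It was at 1494, 1553 and 1586 CPM in control medium, at 1027, 949 and 886 CPM with lean secretome and at 1285, 1522 and 1307 CPM with obese secretome. The lean libraries lay below all others, and the control and obese libraries overlapped. Over all genes tested in NMuMG, lean and obese libraries did not overlap for 45.2%, lean and control for 48.0%, and obese and control for 21.3%. Fn1 fell by 0.54 on the log2 scale with lean relative to obese secretome (SE 0.0801, edgeR adjusted p = 0.00201), and by 0.69 relative to control (SE 0.0802, edgeR adjusted p = 0.000494). The gene shares 2.50% of its exon bases with the antisense gene Apol7d, which had at most 13 counts in a library.

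Cdh1 was at 541, 558 and 528 CPM in control medium, at 525, 511 and 531 CPM with lean secretome and at 471, 491 and 464 CPM with obese secretome. Here the obese libraries stood apart, below the other 6. The lean over obese log2 fold change was 0.12 (SE 0.0323, edgeR adjusted p = 0.00291). That of obese over control was -0.17 (SE 0.0323, edgeR adjusted p = 0.000577), and that of lean over control was -0.05 (edgeR adjusted p = 0.220). Vim mirrored this, with 1737, 1836 and 1773 CPM (control), 1763, 1795 and 1764 CPM (lean) and 1926, 1875 and 1918 CPM (obese). Its obese libraries were the 3 highest, and the control and lean libraries overlapped. Vim had a lean over obese log2 fold change of -0.12 (SE 0.0292, edgeR adjusted p = 0.00176) and of obese over control of 0.11 (SE 0.0292, edgeR adjusted p = 0.0156). The latter call was lost without control replicate 1 or 3 or obese replicate 1 or 3, with edgeR adjusted p-values of 0.0622 to 0.187.

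Cdh2, the mesenchymal cadherin, was at 255, 252 and 263 CPM in control medium, at 265, 273 and 282 CPM with lean secretome and at 239, 244 and 260 CPM with obese secretome. It rose with lean relative to obese secretome by a log2 fold change of 0.13 (SE 0.0351, edgeR adjusted p = 0.00363), in the same direction as Cdh1. Its log2 fold change of lean over control was 0.09 (SE 0.0350, edgeR adjusted p = 0.0361), a call that was lost in 5 of 11 alternative settings. Those were no filter on low counts and the omission of control replicate 1 or 2 or lean replicate 2 or 3. Fn1 and Cdh2, both mesenchymal members, therefore moved in opposite directions in this line.

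Snai1 was low in NMuMG, at 2.19, 2.41 and 2.11 CPM (control), 2.06, 2.30 and 2.11 CPM (lean) and 2.71, 3.30 and 2.83 CPM (obese), from 54 to 80 reads a library. The obese libraries were the 3 highest. The lean over obese log2 fold change was -0.46 (SE 0.175, edgeR adjusted p = 0.0375). The call was lost in 6 of 11 alternative settings: DESeq2, no filter, and without lean replicate 1 or 3 or obese replicate 2 or 3, with adjusted p-values of 0.0605 to 0.158. Obese over control was 0.42 on the log2 scale (SE 0.174, edgeR adjusted p = 0.189).

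The other 5 members of NMuMG were not called in any of the 3 comparisons. Epcam, at 1.59 to 2.66 CPM in the 9 libraries, had the largest value among them, a lean over obese log2 fold change of 0.36 (SE 0.193, edgeR adjusted p = 0.146). Zeb2, at 14.4 to 18.9 CPM, had a value of -0.18 (SE 0.0787, edgeR adjusted p = 0.0713), which became -0.27 (edgeR adjusted p = 0.0105) without lean replicate 2. Zeb1 (51.6 to 57.0 CPM), Snai2 (5.55 to 7.40 CPM) and Twist1 (0.668 to 1.65 CPM) had values of -0.07, -0.09 and 0.01. Twist1 rested on 16 to 40 reads a library, and its SE of 0.291 shows how little this depth could resolve.

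Counted per comparison, the lean secretome gave 2 of 10 members called against control in NMuMG (Fn1 lower, Cdh2 higher), where 38.2% of 15014 genes were called, 19.1% in each direction. The obese secretome gave 2 of 10 (Cdh1 lower, Vim higher), where 5.01% were called. Fn1 was at -0.16 on the log2 scale for obese over control (edgeR adjusted p = 0.411), and at -0.23 (edgeR adjusted p = 0.0111) without obese replicate 2. That library had 1522 CPM, inside the range of the controls.

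The difference between the lines was tested itself, for the 5 members that passed the filter in both. For lean over obese, 2 of 5 were called, where 34.2% of 16529 genes were. The Vim effect in NMuMG minus that in E0771 was 0.38 (SE 0.0476, edgeR adjusted p = 2.69e-08): Vim was lower with lean secretome in both lines, and by more in E0771. The Zeb2 difference was -0.31 (SE 0.0866, edgeR adjusted p = 0.00371), from effects of 0.12 in E0771 and -0.18 in NMuMG, of which the latter was not called by itself. Without replicate 1 of every group this became -0.26 (edgeR adjusted p = 0.0876), and without replicate 3 it became -0.22 (edgeR adjusted p = 0.112). For lean over control 1 of 5 was called (Vim, 0.56, edgeR adjusted p = 2.53e-12), where 34.5% were. For obese over control 1 of 5 was called (Vim, 0.18, edgeR adjusted p = 0.0340), where 1.69% were. The last call was lost without replicate 1 (edgeR adjusted p = 0.475) or replicate 2 (0.133). Snai1 differed by -0.05 for lean over obese (SE 0.161, edgeR adjusted p = 0.888), and Twist1 by 0.37 (SE 0.242, edgeR adjusted p = 0.256). Without replicate 2 of every group the Twist1 difference was 0.80 and was called (edgeR adjusted p = 0.0383), from few reads in NMuMG.

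The wider programme was described with 7 lists of related genes, 116 in all, by counts and medians. These lists were added after the data were seen. The median lean over obese log2 fold change over all genes tested was 0.00 in both lines. The list counts stand against shares over all genes tested of 25.8% higher and 26.9% lower in E0771, and of 17.6% higher and 17.4% lower in NMuMG. For mesenchymal structural and matrix genes in E0771, 17 of 20 were tested, of which 12 fell and 2 rose, with a median of -0.72. Col3a1, a fibrillar collagen, fell by 1.47, Bgn, a small matrix proteoglycan, fell by 1.38, and Col1a1, the main chain of type I collagen, fell by 1.36, all on the log2 scale. Col1a1 went from 523 ± 97.9 CPM with obese to 204 ± 14.5 with lean secretome, and was at 684 ± 42.9 in control medium (SD, n = 3). The fibroblast marker sum moved with the same media, at 885 to 994 CPM in control, 342 to 380 in lean and 657 to 882 in obese libraries. This sum includes Col1a1 and Col3a1, which also belong to the matrix list. Of the 7 fibroblast markers, Lum gave at most 2 counts and Dcn at most 7 in any E0771 library, too few to follow over the media. The part that fibroblast-like cells had in the result was not tested. Pdgfra, a receptor that marks fibroblasts, was at 117 CPM in control, 102 in lean and 116 in obese libraries. The markers Dpt and Pi16 were also lowest with lean secretome. Dpt was at 12.4 CPM in control, 8.39 in lean and 11.6 in obese libraries, and Pi16 at 3.34, 0.706 and 2.32 CPM.

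In NMuMG 14 of the 20 mesenchymal genes were tested, 6 fell and 2 rose, and the median was -0.27. Col6a1 (-0.58) and Col6a2 (-0.53), chains of collagen VI, and Vcan (-0.57), the large proteoglycan versican, moved in the direction of Fn1. Integrins and other fibronectin receptors mostly went the other way from Fn1, with 6 of 8 tested higher and 1 lower, median 0.13. Itgb3 rose by 0.32, Itgb5 by 0.28 and Itgb6 by 0.41. The Itgb6 call was lost with the replicate block (edgeR adjusted p = 0.0645). In E0771, where Fn1 was at 0, 4 of 7 tested receptor genes rose and 2 fell, median 0.30. Itgb3 rose by 0.92 and Itgav by 0.59, the chains of the vitronectin receptor, while Itga3 fell by 0.55.

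Epithelial junction and surface genes were tested for 17 of 25 in NMuMG, and 11 rose and none fell with lean relative to obese secretome, median 0.24. Spint2, a surface protease inhibitor, rose by 0.55, Tjp3 by 0.41 and Cgn, which encodes the tight junction protein cingulin, by 0.40. In the same line 6 of 10 adherens junction partners rose and none fell, median 0.15. Vcl (vinculin) rose by 0.29, Nectin2 by 0.23 and Ctnnd1, the p120 catenin that binds E-cadherin, by 0.22. Summed keratin markers in NMuMG were also highest in the lean libraries, at 7396 to 7657 CPM against 6338 to 7071 in the others. The sum was mostly Krt8 and Krt18. Krt19 overlapped between lean (745 to 816 CPM) and control libraries (737 to 807 CPM). Krt7 had a mean of 108 CPM with lean and of 113 CPM with obese secretome. Krt5, a small part of the sum, had a mean of 5.99 CPM with lean secretome. It was at 0.227 CPM in control medium and 0.478 CPM with obese secretome. The adipocyte marker sum without Adipor2 was 2.06 to 2.30 CPM in those lean libraries against 0.322 to 1.04 in the others, in the lean libraries mostly from Cidec (2.02 CPM). Its part in these results was not tested.

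In E0771 only 7 of the 25 epithelial junction genes passed the filter, 3 rose and 1 fell, median 0.18. Pard6b, a polarity protein, rose by 1.00 and Spint2 by 0.33. Of the 10 adherens junction partners 5 rose and 1 fell, median 0.09. Among the 5 was Nectin4, at 0.678 CPM with lean secretome, against 0.131 in control medium and 0.0747 with obese secretome. It passed the filter on low counts only through the lean libraries, so its rise is not an independent result. Jup, which encodes plakoglobin, fell by 0.64, while Nectin2 rose by 0.84 and Vcl by 0.30. Apart from Nectin4, the adherens junction partners were therefore expressed in E0771 although Cdh1 was nearly absent.

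**Figure D3:**
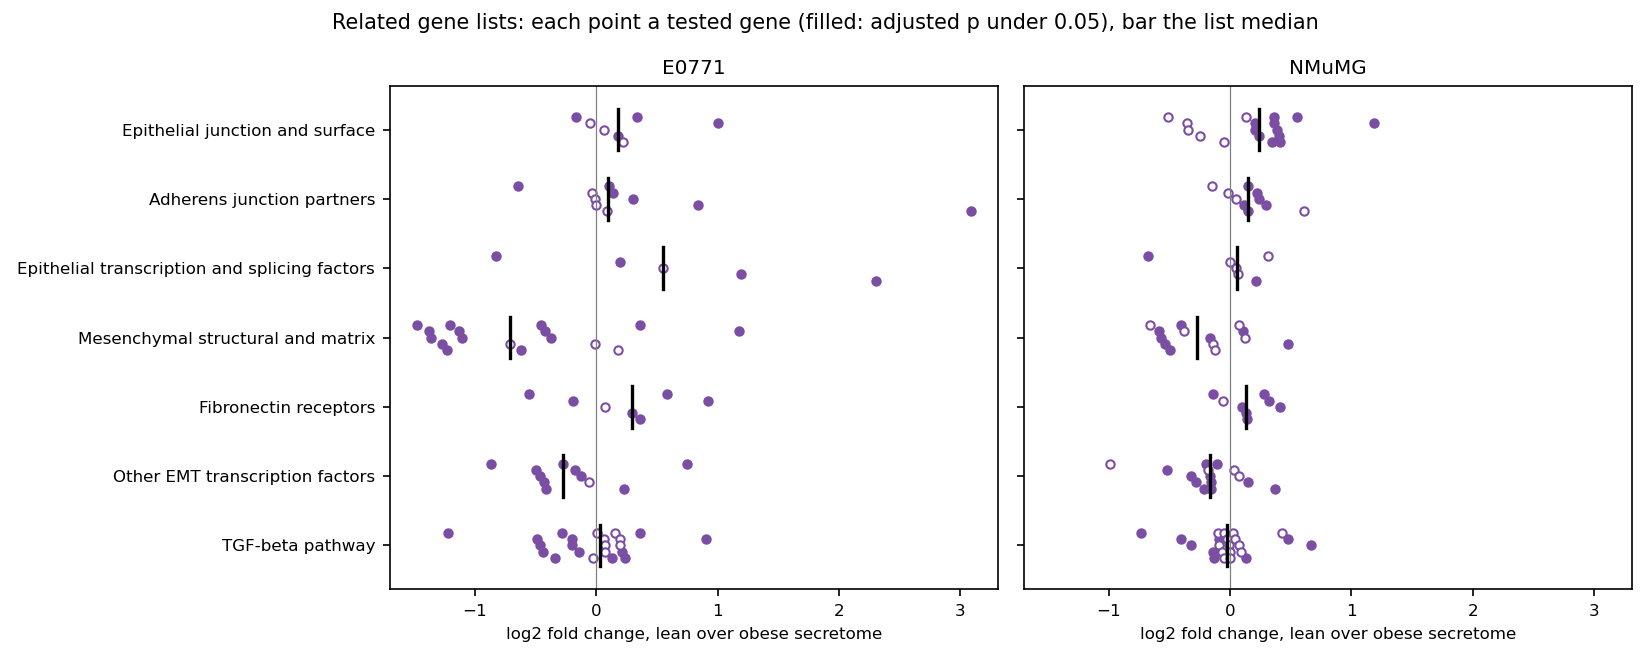
Log2 fold changes of lean over obese secretome (horizontal axis) for the tested genes of 7 related lists in E0771 (left) and NMuMG (right); filled points passed an adjusted p of 0.05 and black bars are list medians. The mesenchymal list has medians of -0.72 and -0.27, and the epithelial junction list in NMuMG has 11 called genes, all above 0.

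Transcription factors outside the 10 members were lower more often than higher by count. Of other factors linked to the transition, 11 of 16 were tested in E0771, 8 fell and 2 rose, median -0.27. Prrx1, a homeobox factor of mesenchyme, fell by 0.87 and Id2 by 0.50, while Hmga2, an architectural chromatin protein, rose by 0.74. The other gene that rose was Twist2, by 0.23 (edgeR adjusted p = 0.00241), the opposite direction to the member Twist1. Twist2 was at 33.1 CPM in control medium, 41.1 with lean and 34.9 with obese secretome. In NMuMG 15 were tested, 9 fell and 2 rose, median -0.16. That count was 7 called genes in all without lean replicate 3 and 6 without obese replicate 3, against 11 with all libraries. Id1 fell by 0.32 and Id3 by 0.28, both inhibitors of helix-loop-helix factors, and the Id3 libraries of lean and obese overlapped. Snai3 rose by 0.37, a call lost in DESeq2 and without lean replicate 2 or 3 or obese replicate 3 (adjusted p 0.0718 to 0.207).

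Epithelial transcription and splicing factors were few among the tested genes. In E0771 5 of 12 were tested, 3 rose and 1 fell, median 0.55, and leaving out obese replicate 3 left 2 called. That median was the value of Elf3, which was not called (edgeR adjusted p = 0.232). Elf3 and the risers Esrp2 and Grhl2 were low, with means of at most 0.896 CPM in any medium of this line. Grhl2 was at 0.896 CPM with lean secretome, against 0.176 in control medium and 0.178 with obese secretome. It passed the filter on low counts only through the lean libraries, so its rise is not an independent result. Klf4 fell by 0.83, and Klf5 rose by 0.20, a call lost without obese replicate 3 (edgeR adjusted p = 0.0927). In NMuMG 6 were tested: Esrp2, a regulator of epithelial splicing, rose by 0.22 and Ehf, an epithelial ETS factor, fell by 0.68. The TGF-beta pathway, a known inducer of the transition in NMuMG, moved in both directions. Of 23 tested genes in NMuMG 3 rose and 6 fell, median -0.03, which is near the 35.0% called over all genes. Its receptors were divided, with Tgfbr2 up by 0.66 and Tgfbr1 down, at -0.41, and the ligand gene Tgfb2 rose by 0.48. In E0771 22 of 23 were tested, 5 rose and 9 fell, median 0.03, with Tgfb3 at -0.49, Ltbp3 at -0.47 and Eng at -0.44.

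Against control, the lean secretome gave a median of -0.78 for the mesenchymal list in E0771 (11 fell, 2 rose, of 17) and of -0.16 in NMuMG (8 fell, 1 rose, of 14). The junction list had a median of 0.17 in NMuMG (9 rose, 1 fell, of 17). Over all genes tested, that comparison called 27.3% higher and 29.0% lower in E0771 and 19.1% in each direction in NMuMG. The obese secretome against control gave 2 called genes of 17 in the mesenchymal list of E0771 and 3 of 14 in that of NMuMG, all lower, and 0 of 7 and 1 of 17 in the junction list, where 2.61% of all tested genes were called in E0771 and 5.01% in NMuMG.

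In SkBr3, 2 of the 3 human members were barely detected. CDH1 gave 0 to 5 reads a library, up to 0.194 CPM, and VIM gave 0 to 5 reads, up to 0.191 CPM. SkBr3 is known as a line without E-cadherin. Of the 3 genes, EPCAM alone reached a level that could be tested. EPCAM was at 227, 235, 226 and 226 CPM in control medium, at 243, 240, 233 and 232 CPM with lean secretome and at 244, 238, 265 and 247 CPM with obese secretome. The lean and obese libraries overlapped, and the control libraries lay below all 4 obese ones. Control and obese libraries did not overlap for 10.9% of all genes tested in SkBr3. The EPCAM lean over obese log2 fold change was -0.10 (SE 0.0367, edgeR adjusted p = 0.0274), where 44.1% of 14874 genes were called. This call was lost without lean replicate 2 or 4 or obese replicate 3 or 4, and in a fit of only the 2 groups. Without obese replicate 3 the value was -0.07 (edgeR adjusted p = 0.142). Lean over control was 0.02 (SE 0.0368, edgeR adjusted p = 0.757), where 48.8% were called, and obese over control was 0.12 (SE 0.0367, edgeR adjusted p = 0.123), where 1.16% were called. EPCAM was thus called in 1 of the 3 comparisons.

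**Figure D4:**
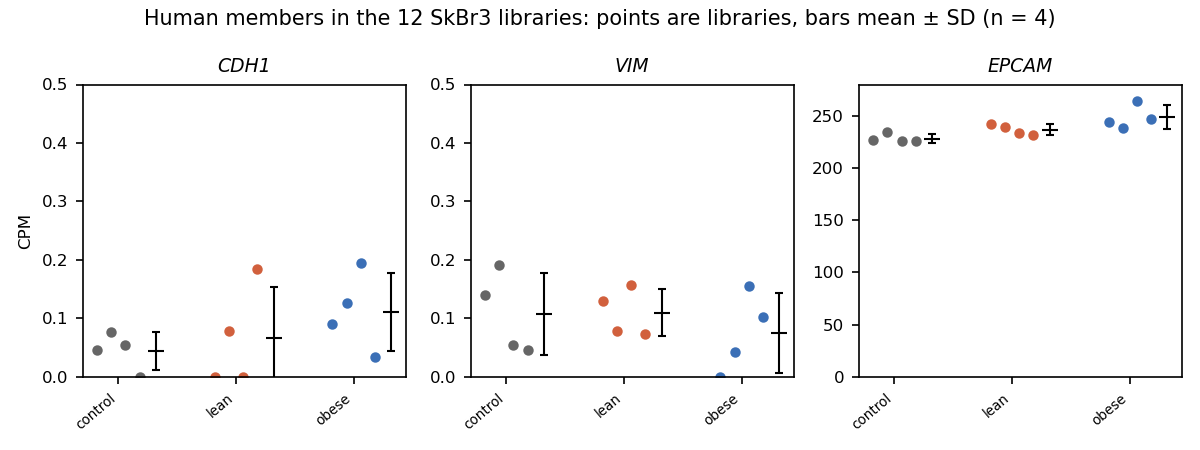
CPM (linear axes from 0) of CDH1, VIM and EPCAM in the 12 SkBr3 libraries by medium; points are libraries and bars are means ± SD (n = 4). CDH1 and VIM stay under 0.2 CPM, and EPCAM lies between 226 and 265 CPM.

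The genes whose levels ran most like Cdh1 and Vim over the 9 libraries of a line were found by Pearson's r of log2 CPM, as a description. For Cdh1 in NMuMG they were Tbc1d9b (r = 0.972), Slc43a2 (0.963) and Sik1 (0.961), among 8354 genes compared. For Vim in E0771 they were Ccng2 (0.998), Btbd2 (0.997) and Rpl22 (0.997), among 8158 genes, and for Vim in NMuMG Hsp90ab1 (0.947), Eif4a3 (0.943) and Gm9625 (0.937). The 9 points share the 3 media, so any gene that separates the media in the same way scores high.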

How the data were processed

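Raw counts by Ensembl gene ID were deposited by the authors in 1 mouse and 1 human table, with whole numbers and no normalization. Libraries were made from poly(A) RNA with a directional kit and read as 150-base pairs, per the labels' protocols. The submitters' processing notes name cutadapt 1.16, STAR 2.7.9a, featureCounts 1.6.3 and the mouse build GRCm39, listed for the human samples too; strand setting and annotation are not given in the sources used here. Gene names and exon lengths came from GENCODE M21 on GRCm38, which named 52073 of 56980 mouse IDs holding 99.68% of the counts. SkBr3 was described by 3 IDs only.

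Each line was fitted with its 3 media in edgeR 4.0.16 (R 4.3.3), with filterByExpr, TMM factors (0.987 to 1.02) and a robust quasi-likelihood F test. A joint fit of the 18 mouse libraries, with TMM factors of 0.949 to 1.05, gave the tests between lines. P-values were adjusted by Benjamini-Hochberg over 13813 (E0771), 15014 (NMuMG), 14874 (SkBr3) or 16529 (joint) genes. SE is the log2 fold change divided by the square root of F. CPM, and the ratios between lines with count intervals, use library totals without TMM. The log2 differences between lines use TMM, so they need not match the CPM printed beside them. Scripts were tested on simulated data. All members were named. In each related list, the 3 called genes with the largest lean against obese change and a mean log2 CPM of at least 2 were named for each line, apart from 1 gene that is not reported here. A few further genes of these lists were named outside this rule. The members and lists were chosen with earlier results of these data known.

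Alternatives were DESeq2 1.42.0, its size factors in edgeR, no filter, only the 2 groups compared, a replicate block and each library left out (in the joint fit, each replicate number). Residuals of same-numbered replicates correlated across genes between -0.0942 and 0.110 in E0771, between -0.0285 and 0.0250 in NMuMG and between -0.0452 and 0.0523 in SkBr3, so the numbers were not taken to pair the libraries. Replicates differed by more than sampling noise (chi-square per degree of freedom 1.99 to 15.2), so none was taken as a repeat deposit. Reads carry no molecular identifiers, so count intervals and floors cover counting error only.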

Additional observations from a re-analysis of the deposited data

Results flagged for a closer look

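In SkBr3 control medium, 1 of the 4 libraries had EPCAM at 234.5 CPM while the other 3 lay at 226 to 227, a gap above Dixon's 95% limit. Such a gap arises by chance in about 1 in 20 groups. The effect of the medium differed between the mouse lines in 4 tests of the difference (NMuMG minus E0771, log2). For Vim it was 0.38 for lean over obese (edgeR adjusted p = 2.69e-08), 0.56 for lean over control (edgeR adjusted p = 2.53e-12) and 0.18 for obese over control (edgeR adjusted p = 0.0340). For Zeb2 it was -0.31 for lean over obese (edgeR adjusted p = 0.00371). These 4 tests share libraries, and the line and its growth medium cannot be told apart.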

How the results depend on the processing

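Of 68 results on single members, 42 kept their direction and their side of the threshold in every alternative. Over 674 alternative values, 612 did so, 34 lost a call, 6 gained one and 22 changed sign, each of the 22 without a call before or after. No called value changed sign. The counts of members called moved as follows when 1 library (or 1 replicate number, between lines) was left out. In E0771 lean against obese gave 3 to 5 and lean against control 3 to 4. In NMuMG lean against obese gave 4 to 6, lean against control 1 to 2 and obese against control 1 to 3. In SkBr3 lean against obese gave 0 to 1. Between the lines, lean against obese gave 1 to 3, lean against control 1 to 2 and obese against control 0 to 1. With no filter on low counts NMuMG lean against control gave 1. With only the 2 groups compared SkBr3 gave 0 for lean against obese and 1 for obese against control. The replicate block left 4 of 5 members called for E0771 lean against obese (Zeb2 lost) and 0 between the lines for obese against control (Vim 0.18, edgeR adjusted p = 0.0667), and changed no other count of members. Uncalled log2 values that crossed 0 when a library was left out were, for obese over control in E0771, Snai1 (-0.022 to 0.071) and Twist1 (-0.013 to 0.079), and in NMuMG Snai2 (-0.035 to 0.16) and Twist1 (-0.55 to 0.14). For lean over obese in NMuMG they were Snai2 (-0.19 to 0.0087) and Twist1 (-0.22 to 0.47). For lean over control in NMuMG they were Vim (-0.024 to 0.021), Snai1 (-0.099 to 0.010), Snai2 (-0.099 to 0.030) and Zeb1 (-0.031 to 0.022). Vim was also at 0.000161 in DESeq2 and 0.000133 with its size factors. Between the lines, for obese over control, they were Zeb1 (-0.028 to 0.065) and Twist1 (-0.55 to 0.056). Counts of the related lists, added after the data were seen, stayed within 1.5 times in 303 of 308 alternative values. For the list genes that the naming rule picked, 433 of 440 values kept their call. In NMuMG lean against control, the count of epithelial factors went from 3 to 1 without control replicate 3 or lean replicate 1. Where a member had under 100 reads a library (Snai1, Twist1 and Epcam in NMuMG), depth limits what could be resolved.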
